A study of Homo sapiens with 22 samples.

Results

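The ubiquitin-conjugating enzymes of the UBE2 family were followed across genotype and day of maturation in HUDEP-2 cells. Members were taken by name, as every gene in both count tables whose symbol was UBE2 followed by 1 letter and, where present, 1 digit. The rule gave 36 of 59087 gene names, of which 34 were protein-coding genes and 2, UBE2L2 and UBE2L4, were processed pseudogenes. Of the 36, 32 had enough reads to be tested in each experiment. The other 4 were UBE2U and UBE2L2, with no read in any library, UBE2L4, with at most 1 read in a library, and UBE2L5, with at most 2.

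Ubiquitin reaches its target through a relay of an E1 enzyme that activates it, an E2 enzyme that carries it as a thioester, and an E3 ligase that chooses the substrate. The UBE2 genes encode the E2 step, and several members carry a ubiquitin-like protein such as NEDD8 or ISG15 instead of ubiquitin. In erythroid cells the E2 step is known for late roles: UBE2O, an E2 with built-in ligase activity, clears ribosomal and other proteins from reticulocytes, and UBE2H works with the CTLH ligase during terminal maturation.

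HUDEP-2 is an immortalised human erythroid progenitor line that is kept in expansion medium, where it was harvested at D0, and that matures in differentiation medium, from which it was harvested at D6. In the H2A.X experiment, WT cells (2 libraries a day) were compared with cells in which the gene of histone H2A.X had been knocked out (KO, 3 libraries a day). In the BAZ1B experiment, WT cells and cells knocked out for BAZ1B, a chromatin-remodelling kinase that phosphorylates H2A.X, were each sequenced as 3 libraries a day. The knockouts were made by CRISPR/Cas9 and taken as subclones grown from single cells. The sample titles give replicate numbers alone. The column names number the KO libraries KO1 to KO3, as the paper names its KO subclones, and name no WT subclone. The 2 experiments were counted and normalised apart from each other.

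Total counts ran from 11910141 to 21013004 in the 10 H2A.X libraries and from 33199408 to 41273244 in the 12 BAZ1B libraries, and the biological coefficient of variation was 0.239 and 0.0865. H2AFX, the gene of H2A.X, read 89.7 to 136 CPM (read counts scaled to the size of the library) in WT and 17.5 to 59.8 CPM in H2A.X KO libraries. BAZ1B read 242 to 264 CPM in WT and 174 to 222 CPM in BAZ1B KO libraries, so reads of the targeted genes were fewer but still present. Per the paper, guides were placed before the start codon and after the stop codon (H2A.X) or the first exon (BAZ1B). Homozygous deletions were picked there by PCR and sequencing, and both proteins were examined by western blot. Reads from inside and outside the deleted stretches were not separated here. All 13 erythroid markers had reads in every group except HBG1 in BAZ1B KO cells at D0. Their summed level went from 6604 to 7365 CPM at D0 to 39113 to 44933 CPM at D6 in BAZ1B WT cells. In the H2A.X experiment the same sum at D0 was 24296 to 33520 CPM in WT and 12299 to 16370 CPM in KO cells, with 38232 to 64845 CPM and 43664 to 73069 CPM at D6. Summed mast cell and eosinophil markers there read 104 to 140 CPM in WT and 212 to 429 CPM in KO at D0, and 145 to 232 CPM and 3.52 to 14.5 CPM at D6. Their part in the results below was not tested. The column names of 5 of the 6 H2A.X KO libraries, all but KO replicate 3 at D6, carry the word Redo and those of no WT library do. At D0 that mark and the genotype cannot be told apart. Across 12017 annotated genes the difference between H2A.X KO and WT rose with transcript length (Spearman's rho 0.50 at D0 and 0.55 at D6, as a description over genes), which was not the case in the BAZ1B experiment (-0.03 and 0.04). At 3104 bases the median member was shorter than the median gene at 3704.

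The members spanned a wide range of levels. Per kilobase of exon, UBE2M, the E2 of NEDD8 for most cullins, stood first in WT cells of both experiments, at 98.1 ± 1.74 CPM per kb (SD, n = 3) at D0 in the BAZ1B experiment. The next 4 places went to UBE2S at 33.3 ± 1.61, UBE2E1 at 31.6 ± 0.813, UBE2D3 at 31.3 ± 0.781 and UBE2J1 at 30.4 ± 1.63 CPM per kb, a run of neighbours that did not differ beyond their spread. UBE2O, at 8.86 ± 0.348, and UBE2H, at 5.76 ± 0.165 CPM per kb, held places 26 and 27 of the 32. UBE2V1, at 0.308 ± 0.0422 CPM per kb, came last. It shares 2066 exonic bases with the readthrough gene PEDS1-UBE2V1, so its level is uncertain. By D6 UBE2L6 had moved from place 16, at 16.9 ± 0.813 CPM per kb, to place 3, at 43.4 ± 0.749, and UBE2T from place 14, at 17.4 ± 0.267, to place 5, at 32.0 ± 0.643 CPM per kb. The place of UBE2C differed widely between the WT cells of the experiments. At D0 it held place 8 in the BAZ1B experiment, at 23.7 ± 1.52 CPM per kb. In the H2A.X experiment it held place 32 at D0, at 0.419 ± 0.293 CPM per kb (n = 2). Other members, UBE2T and UBE2S among them, changed place between the experiments as well.

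**Figure D1:**
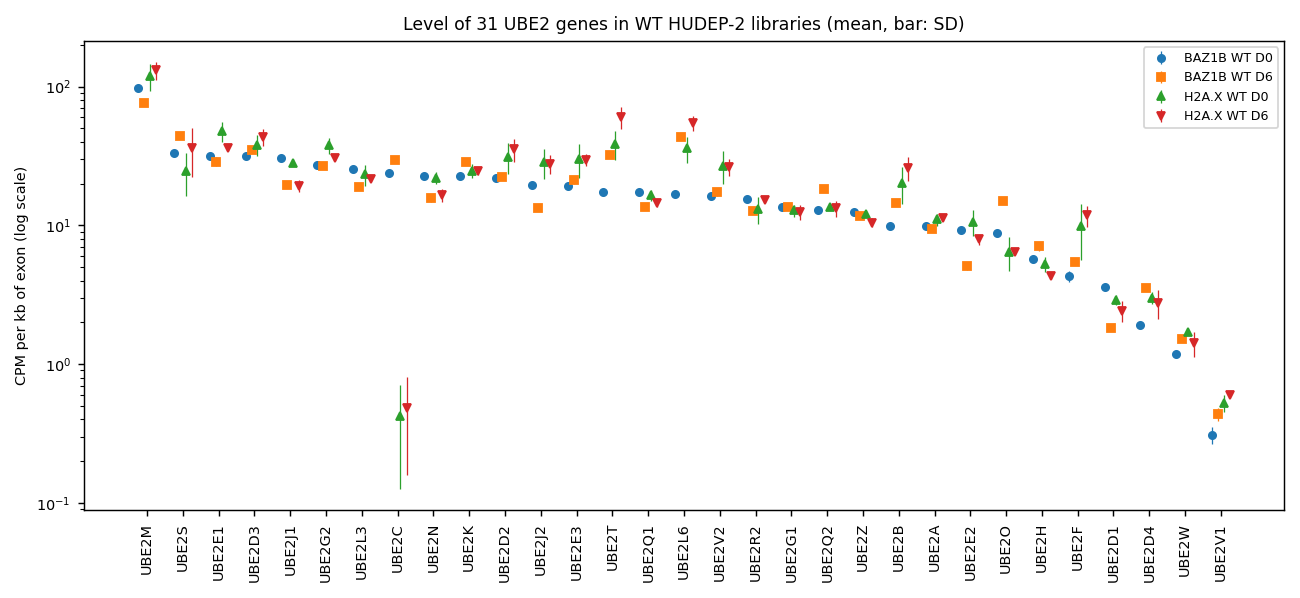
Level of 31 of the 32 tested UBE2 genes in the WT libraries, in CPM per kilobase of exon on a log axis; symbols are group means (n = 3 for BAZ1B WT, n = 2 for H2A.X WT) and bars are SD. UBE2M stands highest in all 4 groups, and UBE2C in the H2A.X WT groups lies at 0.419 and 0.483 CPM per kb against 23.7 and 29.7 in the BAZ1B WT groups.

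The first question was which E2 genes changed as the cells matured. In BAZ1B WT cells 26 of 32 members (81.2%) changed between D0 and D6 by edgeR's quasi-likelihood test at an adjusted p below 0.05, against 68.9% of the 13879 genes tested. Of these, 14 rose (43.8%, against 33.5% of all genes) and 12 fell (37.5%, against 35.4%). The changes were modest, with a median absolute log2 fold change of 0.36 for the members and 0.47 for all genes. No member met the stricter cut-off, adjusted p under 0.001 with a log2 change beyond 1.5 either way, which 11.7% of all genes met. The D0 and D6 libraries did not overlap for 27 members (84.4%, against 78% of all genes). In bulk RNA a lower or higher level per cell and a shift in the share of cells cannot be told apart.

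The largest rise was that of UBE2L6 (GRCh38, chromosome 11, bases 57551656 to 57568284), the E2 that conjugates the interferon-induced modifier ISG15. It read 35.4, 36.1 and 32.9 CPM at D0 and 89.7, 87.9 and 91.0 CPM at D6 in BAZ1B WT libraries. KO libraries read 29.9, 35.2 and 32.4 against 92.9, 95.9 and 95.6 CPM. The 2 days did not overlap in either genotype. The rise was 2.57-fold in WT (log2 1.36 ± 0.06 SE, adjusted p = 4.08e-10) and 2.92-fold in KO cells (log2 1.54 ± 0.06, adjusted p = 1.59e-10), where UBE2L6 was the single member past the stricter cut-off (11.5% of all genes met it). In the H2A.X experiment it read 62.6 and 85.1 CPM at D0 and 103 and 123 CPM at D6 in WT libraries, and 47.6, 51.2 and 46.7 against 94.5, 105 and 91.4 CPM in KO libraries. The days again did not overlap, with log2 changes of 0.61 ± 0.18 in WT (adjusted p = 0.102) and 1.0 ± 0.15 in KO cells (adjusted p = 0.00105). UBA7, the E1 that activates ISG15, rose with it by log2 2.80 ± 0.31 in BAZ1B WT, 3.15 ± 0.34 in BAZ1B KO and 3.89 ± 0.56 in H2A.X KO cells. ISG15 itself fell in BAZ1B KO cells (-0.74 ± 0.18, adjusted p = 0.0022) and was not called in BAZ1B WT (-0.40 ± 0.17, adjusted p = 0.0569) or H2A.X KO cells (-0.79 ± 0.32, adjusted p = 0.0875).

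Of the late erythroid pair, UBE2O gave the steadier rise. The gene lies on chromosome 17 (bases 76389456 to 76453152, reverse strand) and UBE2H on chromosome 7 (bases 129830732 to 129952960, reverse strand). Values of UBE2O in BAZ1B WT libraries were 59.2, 54.8 and 56.4 CPM at D0 and 97.1, 97.0 and 95.7 CPM at D6. In KO libraries they were 57.0, 51.4 and 50.0 against 98.7, 102 and 97.3 CPM. Every D6 library lay above every D0 library, with log2 changes of 0.77 ± 0.05 in WT (adjusted p = 1.92e-08) and 0.91 ± 0.05 in KO cells (adjusted p = 4.41e-09). UBE2H read 38.8, 36.9 and 36.9 CPM at D0 and 45.2, 43.4 and 49.8 CPM at D6 in WT cells (log2 0.30 ± 0.08, adjusted p = 0.00346). In KO cells it read 38.1, 44.5 and 45.0 against 42.1, 48.6 and 47.8 CPM, where the days overlapped (log2 0.12 ± 0.08, adjusted p = 0.19). The difference between the genotypes in this change was not called (-0.18 ± 0.11, adjusted p = 0.441). Among the CTLH ligase subunits, the partners of UBE2H, 6 of 11 rose (against 33.5% of all genes) and 2 fell (against 35.4%) in BAZ1B WT cells. The rise was led by RANBP10, 3.04-fold higher at D6 (60.5 to 63.4 CPM at D0, 178 to 198 CPM at D6). YPEL5, another subunit, rose by 1.34 ± 0.06. Of the subunits with a RING domain, RMND5A rose by 0.41 ± 0.05 and RMND5B rose as well, while MAEA fell by 0.14. With a correction for transcript length and GC content MAEA was no longer among the calls.

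E2s of chromatin and DNA repair moved in both directions. UBE2T, the E2 of the Fanconi anaemia pathway, rose from 33.1, 33.9 and 34.0 to 62.5, 62.6 and 60.4 CPM in BAZ1B WT libraries and from 34.6, 34.9 and 32.1 to 55.8, 63.7 and 63.3 CPM in KO libraries. The days did not overlap, and the log2 changes were 0.88 ± 0.06 (adjusted p = 1.56e-08) and 0.85 ± 0.06 (adjusted p = 2.39e-08). UBE2B, a RAD6 homologue that ubiquitinates histone H2B and PCNA, rose by 0.55 ± 0.06 in WT and 0.23 ± 0.06 in KO cells, while its close paralog UBE2A changed by -0.07 ± 0.06 in WT (adjusted p = 0.293) and fell by 0.24 in KO cells (adjusted p = 0.00241). UBE2N, which builds chains that signal rather than degrade, fell by 0.53 in WT and by 0.49 in KO cells. It shares 2474 exonic bases with NUDT4 on the opposite strand, and UBE2A shares 956 with NKRF. The labels name a library kit that does not mark strand and the study's methods one that does, so reads of such pairs may not have been told apart. The partners of UBE2N, UBE2V1 and UBE2V2, lack the catalytic cysteine. They were not called in WT cells (0.50 ± 0.26 and 0.10 ± 0.07), and in KO cells UBE2V1 rose (0.63 ± 0.26, adjusted p = 0.0451, with overlapping days) and UBE2V2 was not called (0.10 ± 0.07).

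The mitotic E2s rose slightly. UBE2C, which starts chains on substrates of the anaphase-promoting complex (APC/C), went from 32.7, 29.5 and 29.2 CPM to 40.0, 36.0 and 38.6 CPM in WT libraries (log2 0.33 ± 0.07, adjusted p = 0.00124). UBE2S, which extends those chains, went from 98.5, 91.1 and 90.4 CPM to 125, 121 and 125 CPM (0.41 ± 0.05, adjusted p = 9.77e-06). In KO libraries the corresponding changes were 0.10 ± 0.07 (adjusted p = 0.251) and 0.22 ± 0.05 (adjusted p = 0.00157). The genotypes' changes were not called different (-0.23 ± 0.10, adjusted p = 0.284, and -0.18 ± 0.07, adjusted p = 0.217). Of the 15 mitotic marker genes, 14 rose in WT (against 33.5% of all genes) and 11 in KO cells (against 33.2%) with none falling. Of the 17 genes of the APC/C and its regulators, 10 rose (against 33.5% of all genes) and 5 fell (against 35.4%) in WT cells. CDC20, the APC/C activator, rose by 0.62 ± 0.09.

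The members that fell were led by 2 of the promiscuous E2s, UBE2D1 and UBE2E2, and by 2 of the 4 E2s of endoplasmic reticulum (ER) degradation, UBE2J1 and UBE2J2. UBE2D1, which works with a wide range of ligases, went from 12.4, 12.2 and 12.8 CPM to 6.45, 6.60 and 6.01 CPM in BAZ1B WT libraries. In KO libraries it went from 12.2, 14.3 and 15.5 to 7.30, 6.08 and 6.04 CPM, also without overlap. It fell by 0.97 in WT (SE 0.11, adjusted p = 3.32e-06) and by 1.11 in KO cells (SE 0.11, adjusted p = 9.83e-07). Its close paralogs did otherwise. UBE2D4 rose by 0.89 ± 0.18 in WT cells, from 8.59, 8.85 and 9.41 CPM to 17.1, 16.7 and 15.9 CPM, although 729 of its exonic bases lie opposite POLR2J4. UBE2D3 rose by 0.14 ± 0.03 and UBE2D2 was not called (0.03 ± 0.05, adjusted p = 0.574). UBE2E2 fell by 0.84 in WT and by 0.99 in KO cells, whereas in WT cells UBE2E3 rose by 0.13 ± 0.05 and UBE2E1 fell by 0.13, a gene with 1132 exonic bases opposite NKIRAS1. Both membrane-bound E2s of the ER fell in each genotype, UBE2J1 by 0.64 and 0.46 and UBE2J2 by 0.55 and 0.51, while the soluble UBE2G1 and UBE2G2 were not called in WT cells (0.00 ± 0.04 and -0.04 ± 0.06). In KO cells UBE2G1 rose (0.11 ± 0.04, adjusted p = 0.0293) and UBE2G2 fell (-0.20 ± 0.06, adjusted p = 0.0137).

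E2s of ubiquitin-like proteins moved both ways in BAZ1B WT cells. UBE2L6 and UBE2F, the second NEDD8 E2 (0.34 ± 0.07), rose, and UBE2M (-0.36 ± 0.03) and UBE2Z (-0.10 ± 0.03), which takes ubiquitin and FAT10 from UBA6, fell. UBE2F shares 688 exonic bases with UBE2F-SCLY on the same strand, so its value is uncertain. Elsewhere in the family, UBE2Q2 (0.49 ± 0.07), UBE2W (0.36 ± 0.07) and UBE2K (0.34 ± 0.04) rose and UBE2L3 (-0.44 ± 0.05), UBE2Q1 (-0.36 ± 0.05) and UBE2R2 (-0.27 ± 0.05) fell. CDC34, an E2 of cullin ligases whose symbol keeps it outside the name rule, rose by 1.15 ± 0.05, from 59.0 to 59.8 CPM to 125 to 143 CPM.

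The changes in BAZ1B WT cells were set beside those in KO cells of either experiment, which share no library with them. In BAZ1B KO cells 25 of 32 members were called (78.1%, against 67.7% of all genes), 13 upwards (40.6%, against 33.2%) and 12 downwards (37.5%, against 34.5%). Of these, 21 were called in both genotypes and all 21 had the same direction. Another 5 were called in WT cells alone and 4 in KO cells alone, and of the latter UBE2G1 had the opposite sign in WT cells, where its change was close to 0. The days did not overlap for 25 members in BAZ1B KO cells (78.1%, against 68% of all genes) and for 15 in H2A.X KO cells (46.9%, against 48.8%). In H2A.X KO cells 11 of 32 were called (34.4%, against 30.9% of 13236 genes), and none met the stricter cut-off (3.22% of all genes). The 5 that rose (against 14.8% of all genes) were UBE2B, UBE2H, UBE2L6, UBE2O and UBE2T. The 6 that fell (against 16.1%) were UBE2D1, UBE2E2, UBE2J1, UBE2J2, UBE2L3 and UBE2N. All 11 were also called in BAZ1B WT cells, with the same direction, where 68.9% of all genes were called. How often all genes called in both kinds of cells shared a direction was not computed. The agreement of the 11, and of the 21 above, is therefore not shown to be particular to the members. Over the 32 members the change in BAZ1B WT correlated with that in BAZ1B KO at r = 0.97. With that in H2A.X KO it correlated at r = 0.86. With that in H2A.X WT it was r = 0.61, and 20 of 32 had the same direction. The changes in H2A.X WT and H2A.X KO correlated at r = 0.56, with 18 of 32 in the same direction. UBE2H and UBE2O, called in H2A.X KO, had the opposite sign in H2A.X WT. These values describe genes measured in the same libraries, and those over all genes were not computed. The count of 11 in H2A.X KO cells dropped to 5 without KO replicate 2 at D6, to 6 without any one of the KO libraries at D0, and to 7 without KO replicate 1 or WT replicate 2 at D6.

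In H2A.X WT cells no member was called between D0 and D6 (against 2% of all genes), with 5 members at an unadjusted p below 0.05 (21.1% of all genes) and 2 called by DESeq2. The days did not overlap for 14 members (43.8%, against 51.3%). None of the 13 erythroid markers was called between these days either, against 13 in BAZ1B WT and 12 in H2A.X KO cells. With the replicate number as a block, 2 members were called by edgeR: UBE2L6 at log2 0.63 (adjusted p = 0.0341) and UBE2T at 0.65 (adjusted p = 0.035). That the WT number marks a subclone rests on 1 correlation between days (0.55), and the column names give no WT subclone. UBE2O read 49.4 and 33.4 CPM at D0 and 42.2 and 40.0 CPM at D6 (-0.01 ± 0.22, adjusted p = 0.99). UBE2H read 37.1 and 31.3 CPM and then 27.2 and 29.3 CPM (-0.27 ± 0.37, adjusted p = 0.727). UBE2O overlapped between the days and UBE2H at D6 lay below both D0 values, in groups of 2 libraries.

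**Figure D2:**
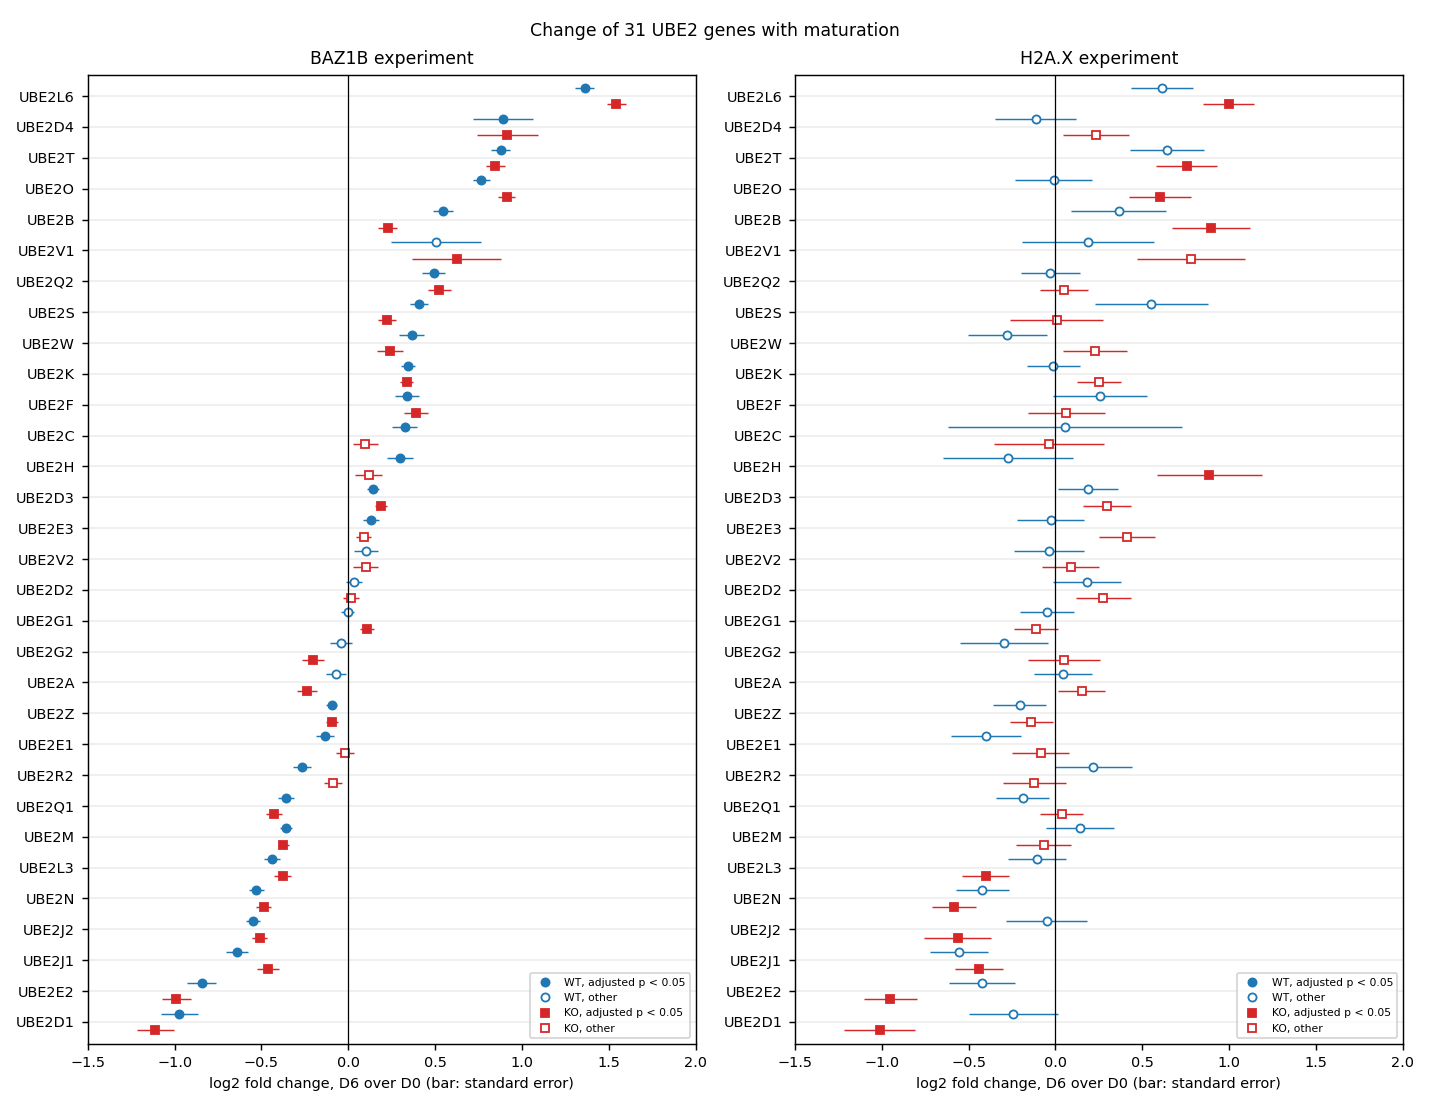
Log2 fold change from D0 to D6 of 31 of the 32 tested members, in order of the change in BAZ1B WT cells; circles are WT and squares KO, filled symbols passed edgeR's test at an adjusted p below 0.05, and bars are standard errors. UBE2L6, UBE2T and UBE2O lie to the right and UBE2D1, UBE2E2 and UBE2J1 to the left in BAZ1B WT, BAZ1B KO and H2A.X KO cells, while the H2A.X WT values are open symbols throughout.

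Promoter sequence is shown for a pair of members that rose with maturation, UBE2O and UBE2T, for the mitotic UBE2S, and for UBE2D1, which fell. The bases are RefSeq's on GRCh38.p14, on the gene's strand from 5′ to 3′ and upstream of RefSeq's start, without bases in any annotated exon, and capitals mark motif matches on either strand.
UBE2O, chr17:76453153-76453350: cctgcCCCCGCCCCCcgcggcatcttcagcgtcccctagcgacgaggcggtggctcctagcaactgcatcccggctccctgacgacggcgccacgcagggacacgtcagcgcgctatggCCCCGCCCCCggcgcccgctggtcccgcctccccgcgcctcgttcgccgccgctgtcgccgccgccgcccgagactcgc
UBE2T, chr1:202341985-202342186: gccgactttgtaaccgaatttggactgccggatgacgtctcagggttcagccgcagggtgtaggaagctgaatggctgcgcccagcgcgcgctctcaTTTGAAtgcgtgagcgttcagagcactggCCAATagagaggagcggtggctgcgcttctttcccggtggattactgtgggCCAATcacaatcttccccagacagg
UBE2S, chr19:55407789-55408038: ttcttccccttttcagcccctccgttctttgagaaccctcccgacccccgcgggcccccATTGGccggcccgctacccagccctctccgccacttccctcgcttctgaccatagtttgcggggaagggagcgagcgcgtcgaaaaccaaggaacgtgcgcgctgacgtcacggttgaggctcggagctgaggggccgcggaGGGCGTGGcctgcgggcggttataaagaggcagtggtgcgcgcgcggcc
UBE2D1, chr10:58334756-58334978: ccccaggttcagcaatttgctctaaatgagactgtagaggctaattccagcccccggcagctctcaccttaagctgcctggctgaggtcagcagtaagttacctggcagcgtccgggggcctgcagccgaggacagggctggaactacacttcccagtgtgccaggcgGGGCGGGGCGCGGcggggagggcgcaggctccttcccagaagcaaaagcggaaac
The motifs were the GATA box (AGATAA, taken also with T in its first or G in its last place), the CACCC-type box (CCNCNCCC, which also takes in many GC boxes), the CCAAT box (CCAAT) and the cell cycle homology region, CHR (TTTGAA). The UBE2T stretch held 2 CCAAT boxes and 1 CHR, that of UBE2S 1 CCAAT and 1 CACCC-type box, and those of UBE2O and UBE2D1 4 and 2 CACCC-type matches, some of them overlapping, while none held a GATA box in these letters. Over 250 bases upstream, 26 members matched the table at 38 starts: 76.3% of these starts held a CACCC-type match against 53.4% of 35116 starts in all, 28.9% a CCAAT box against 32.0%, 10.5% a GATA box against 22.3% and 7.89% a CHR against 13.3%. These are matches of letters and not measured sites.

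The second question was how the E2 genes differed between H2A.X KO and WT cells. At D0, 11 of 32 members were called (34.4%, against 35.1% of all genes), 2 higher in KO cells (6.25%, against 18.4%) and 9 lower (28.1%, against 16.7%). At D6, 12 were called (37.5%, against 43.1%), 4 higher (12.5%, against 22.2%) and 8 lower (25%, against 20.9%). The genotypes did not overlap for 24 members at D0 (75%, against 70.3% of all genes) and 17 at D6 (53.1%, against 63.3%). The median log2 difference of the members was -0.28 at D0 and -0.18 at D6, against 0.01 and -0.01 over all genes. At D0 it was -0.42 without WT replicate 1 and -0.11 without WT replicate 2, and at D6 it was -0.08 without KO replicate 3. These comparisons share their WT and KO libraries with the comparisons between days.

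UBE2C (chromosome 20, bases 45812576 to 45816957, forward strand), the E2 that starts APC/C chains in mitosis, gave by far the largest difference of any member. It had 14 and 4 reads in WT libraries at D0 and 5 and 9 at D6, against 599, 458 and 400 reads in KO libraries at D0 and 468, 514 and 288 at D6. As CPM these were 0.806 and 0.272, then 0.325 and 0.917, against 28.8, 22.4 and 18.7, then 24.5, 27.8 and 15.8. No KO library came near a WT library, and KO cells were 41.6-fold higher at D0 (log2 5.38 ± 0.51 SE, adjusted p = 0.000672) and 39.0-fold higher at D6 (5.29 ± 0.52, adjusted p = 0.000955). Among 13236 genes the difference held place 108 from the highest at D0 and place 78 at D6, and it was the one member past the stricter cut-off (0.166% and 0.151% of all genes met it). In the BAZ1B experiment, normalised on its own, all 12 libraries had 1072 to 1440 reads, or 28.1 to 40.0 CPM, so it was the H2A.X WT libraries that stood apart.

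With 1 library left out at a time the log2 difference ran from 4.84 to 6.38 at D0 and from 4.64 to 6.13 at D6, so the size of the fold rests on the few WT reads.

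No gene beside UBE2C on chromosome 20 had a gap of this size. The 12 tested genes on both sides of it had log2 differences from -0.57 (ACOT8) to 2.05 (PLTP) at D0 and from -1.44 (NEURL2) to 0.24 (ZNF335) at D6. DNTTIP1 and ACOT8 were lower in KO cells on both days (-0.49 and -0.57 at D0), PIGT at D0 (-0.52) and NEURL2 at D6. PLTP, CD40 and ZSWIM3, higher at D0 by 2.05, 1.69 and 1.01, were not called at D6 (0.12, -0.12 and -0.26). Mitotic genes moved both ways. At D0, 4 of 15 markers were higher in KO cells (against 18.4% of all genes) and 3 lower (against 16.7%). At D6, 6 were higher (against 22.2%) and 4 lower (against 20.9%). Their log2 differences ran from -1.15 to 1.85. A correction for transcript length and GC content was chosen for the lists after seeing the data. With it none of the markers was higher at D0 and 2 were lower (against 15.5% of all genes). At D6, 2 were higher (against 12.4%) and 1 lower (against 14.4%). The UBE2C difference was then 5.84 at D0 and 6.09 at D6.

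The other mitotic E2 went the opposite way. UBE2S read 52.3 and 86.4 CPM in WT libraries at D0 against 24.8, 36.1 and 37.2 CPM in KO libraries, and 74.0 and 129 CPM against 28.0, 39.3 and 31.4 CPM at D6. The genotypes did not overlap on either day, and UBE2S was lower in KO cells by 2.12-fold at D0 (log2 -1.08 ± 0.29, adjusted p = 0.0195) and 3.09-fold at D6 (-1.63 ± 0.29, adjusted p = 0.00422). CDC20 was lower as well (-0.89 ± 0.22 and -1.10 ± 0.22). So were ANAPC11, the RING subunit (-0.97 and -0.95), and ANAPC15 (-1.04 and -1.34), while ANAPC1, the largest subunit, was higher (1.32 and 1.04). In all, 1 of the 17 APC/C genes was higher at D0 (against 18.4% of all genes) and 3 lower (against 16.7%). At D6, 3 were higher (against 22.2%) and 6 lower (against 20.9%). With the length and GC correction 1 was higher at D0 (against 9.97% of all genes) and 3 lower (against 15.5%). At D6, 1 was higher (against 12.4%) and 4 lower (against 14.4%). CDC20 was then not called on either day (-0.45, adjusted p = 0.0975, and -0.43, adjusted p = 0.101). Nor were ANAPC15 at D0 (-0.57), ANAPC11 at D6 (-0.42) or ANAPC1 at D6 (0.34). The WT libraries differed among themselves here. Without WT replicate 2 the UBE2S difference was -0.68 (adjusted p = 0.23) at D0 and -1.14 (adjusted p = 0.0674) at D6, and without KO replicate 1 it was -0.92 (adjusted p = 0.0632) at D0.

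As fitted, UBE2T and the NEDD8 E2s were lower in KO cells on both days. With the length and GC correction UBE2M lost its call on both days, UBE2F and UBE2J2 theirs at D0, and UBE2T its own at D6. UBE2T read 62.4 and 87.0 CPM in WT against 42.1, 45.0 and 40.7 CPM in KO libraries at D0, and 101 and 132 CPM against 64.0, 84.0 and 67.6 CPM at D6. The log2 differences were -0.81 ± 0.19 at D0 (adjusted p = 0.0125) and -0.70 ± 0.19 at D6 (adjusted p = 0.0154). UBE2M read 174 and 239 CPM against 110, 132 and 119 CPM at D0, and 204 and 252 CPM against 107, 110 and 128 CPM at D6. The log2 differences were -0.78 ± 0.17 at D0 (adjusted p = 0.011) and -0.99 ± 0.17 at D6 (adjusted p = 0.00418). UBE2F read 29.1 and 54.7 CPM against 27.6, 21.7 and 23.1 CPM at D0, and 44.0 and 56.2 CPM against 25.0, 23.7 and 26.9 CPM at D6. The log2 differences were -0.80 ± 0.24 at D0 (adjusted p = 0.03) and -0.99 ± 0.24 at D6 (adjusted p = 0.0103). None of these groups overlapped between genotypes. UBE2J2, the ER member, read 111 and 158 CPM in WT against 81.1, 88.8 and 87.2 CPM in KO libraries at D0, and 116 and 144 CPM against 51.6, 49.0 and 73.4 CPM at D6. It too was lower on both days without overlap (-0.65 ± 0.21, adjusted p = 0.0363, and -1.16 ± 0.21, adjusted p = 0.00422). Of the ubiquitin and ubiquitin-like genes, 6 of 10 were lower at D0 (against 16.7% of all genes) and 5 at D6 (against 20.9%) with none higher. NEDD8 and RPS27A, which encodes ubiquitin fused to a ribosomal protein, were among them on each day. With the length and GC correction 5 were lower at D0 (against 15.5% of all genes) and 3 at D6 (against 14.4%), again with NEDD8 (-1.03 and -1.07) and RPS27A (-0.72 and -0.71) among them.

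As fitted, the late erythroid pair was higher in KO cells at D6. With the length and GC correction UBE2O kept its call and UBE2H lost it. UBE2O read 42.2 and 40.0 CPM in WT against 78.0, 82.7 and 58.8 CPM in KO libraries, without overlap (log2 0.83 ± 0.21, adjusted p = 0.0104). At D0 it had read 49.4 and 33.4 against 51.6, 47.4 and 45.5 CPM (0.22 ± 0.20, adjusted p = 0.412). UBE2H read 27.2 and 29.3 CPM against 61.2, 111 and 38.8 CPM (1.32 ± 0.35, adjusted p = 0.0145). At D0 it had read 37.1 and 31.3 against 39.3, 37.9 and 37.4 CPM (0.16 ± 0.34, adjusted p = 0.734). The KO libraries ranged widely at D6. Replicate 3, whose column name lacks the word Redo, was the lowest KO library for UBE2O (58.8 CPM) and UBE2H (38.8 CPM). The part of that mark in the difference was not tested. Without KO replicate 2, the highest, the UBE2H difference was 0.82 and still called, but not without WT replicate 1 or 2 at D6, where it was 1.29 (adjusted p = 0.0748) or 1.40 (adjusted p = 0.0933). The change of the genotype difference between days was not called for UBE2H (1.16 ± 0.48, adjusted p = 0.286) or UBE2O (0.61 ± 0.28, adjusted p = 0.343). Of the CTLH subunits 5 of 11 were higher at D6 (against 22.2% of all genes) and none lower. At D0, 1 was higher (against 18.4%) and 2 lower (against 16.7%). RANBP10 stood at 134 to 273 CPM in KO and 57.9 and 65.8 CPM in WT libraries at D6 (1.71 ± 0.28). With the length and GC correction 2 subunits were higher at D6 (against 12.4% of all genes), RANBP10 (1.49 ± 0.25) and RANBP9. At D0, 1 was higher (against 9.97%) and 3 lower (against 15.5%). Erythroid markers summed to 43664 to 73069 CPM in these KO libraries and 38232 to 64845 CPM in WT libraries, and their part in the difference was not tested.

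Of the remaining calls, UBE2D1 was higher at D0, at 21.0, 14.6 and 15.9 CPM in KO against 9.50 and 10.6 CPM in WT libraries (0.77 ± 0.23, adjusted p = 0.0288), and not at D6, at 7.64 to 9.83 against 7.44 and 9.49 CPM (0.00 ± 0.23, adjusted p = 0.994). The change of that difference was not called (-0.77 ± 0.33, adjusted p = 0.3). UBE2L6 was lower at D0, at 46.7 to 51.2 CPM against 62.6 and 85.1 CPM (-0.61 ± 0.16, adjusted p = 0.0188), and at D6 the genotypes overlapped (-0.22 ± 0.16, adjusted p = 0.286). UBE2G2 (-0.66), UBE2E3 (-0.75) and UBE2D2 (-0.55) were lower at D0, and UBE2E2 (-0.57) and UBE2L3 (-0.54) at D6. UBE2W was higher at D6 (0.58 ± 0.21, adjusted p = 0.0475), but shares 474 exonic bases with an unnamed gene on its strand, and with the length and GC correction its difference turned to -0.35 (adjusted p = 0.186) at D6 and became a call for lower at D0 (-0.72, adjusted p = 0.0209). For the ligases of chromatin and DNA damage E2s, 4 of 12 were higher at D0 (against 18.4% of all genes) and 7 at D6 (against 22.2%). None was lower, and BRCA1, HLTF and SHPRH were higher on both days. With that correction 1 was higher (against 9.97% of all genes) and 2 lower (against 15.5%) at D0, where BRCA1 (0.36) and HLTF (0.39) lost their calls. At D6, 6 were higher (against 12.4%) and 2 lower (against 14.4%). Of 32 members none differed between days in the genotype effect (against 1.34% of all genes), with 2, UBE2D1 and UBE2H, at an unadjusted p below 0.05 (15.2% of all genes) and none called by DESeq2.

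Much of this rested on few WT libraries and moved with transcript length. Without WT replicate 2 of the same day 1 WT library was left. The median log2 difference of the members was then -0.11 at D0 and -0.13 at D6, against 0.02 over all genes on each day. That of UBE2C was 4.84 and 6.13. At D0 the member calls dropped to 5, 7 and 5 without KO replicates 1, 2 and 3, with no share of all genes set beside them. With transcript length and GC content as an offset, 2 members were higher (against 9.97% of all genes) and 8 lower (against 15.5%) at D0. At D6, 3 were higher (against 12.4%) and 9 lower (against 14.4%). Of these, 5 at D0 and 8 at D6 were called in both fits. UBE2C and UBE2S kept their calls on both days, UBE2T and UBE2D1 at D0, and UBE2O, UBE2F and UBE2J2 at D6. Calls that were lost included UBE2M on both days (-0.12 at D0 and 0.07 at D6), and at D0 UBE2J2 (-0.39, adjusted p = 0.122), UBE2F (-0.54, adjusted p = 0.07) and UBE2L6 (-0.11, adjusted p = 0.566). At D6 they included UBE2T (-0.40, adjusted p = 0.0696), UBE2H (0.93, adjusted p = 0.068) and UBE2W, and UBE2L6 turned to 0.50 (adjusted p = 0.0233). Over the 32 members, as a description over genes of the same libraries, the rank correlation of the difference with length (Spearman's rho) was 0.49 at D0, and 0.32 at D6, as fitted. With the offset these values became -0.26 and -0.30.

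**Figure D3:**
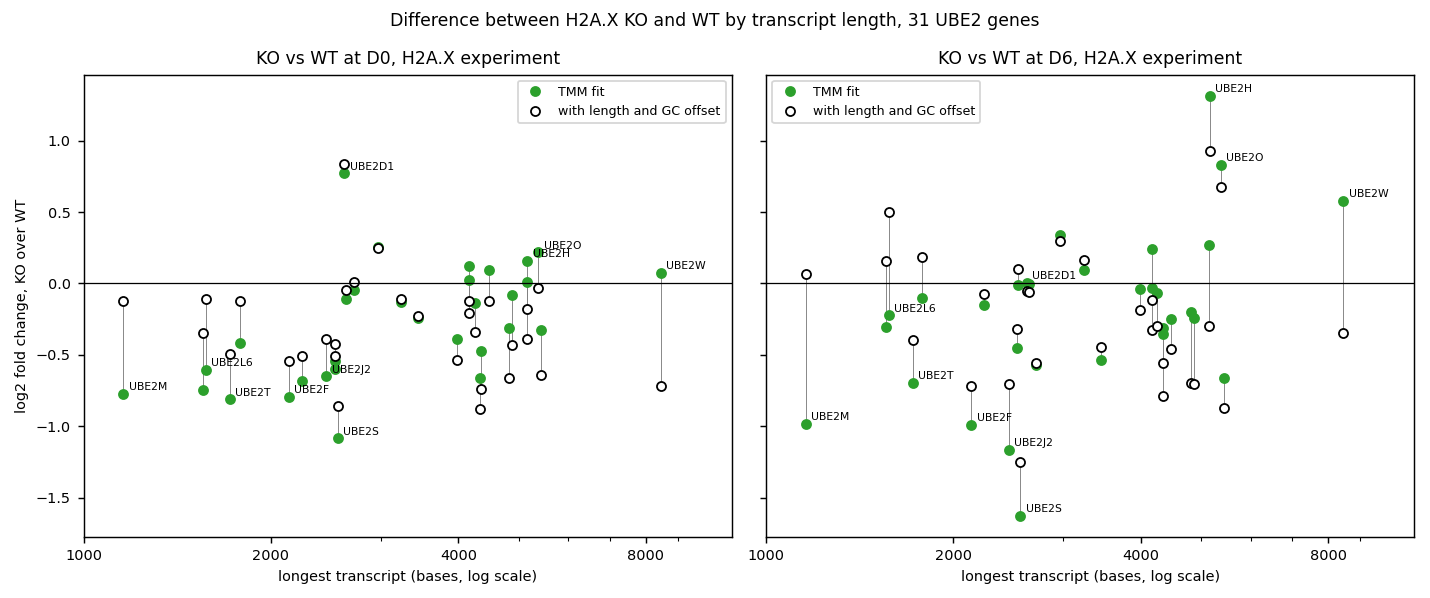
Log2 difference between H2A.X KO and WT cells at D0 (left) and D6 (right) against the length of the longest annotated transcript in bases, on a log axis, for 31 members (UBE2C, at 5.38 and 5.29, lies outside the plotted range and is left out). Green points are the TMM fit, open points the fit with a length and GC offset, and a line joins the pair of each gene; short genes such as UBE2M (-0.78 to -0.12 at D0) move up and the longest, UBE2W, moves down.

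The last question was how the members differed between BAZ1B KO and WT cells. At D0 none was called (against 3.88% of all genes), with 6 at an unadjusted p below 0.05 (15.4% of all genes) and 1 called by DESeq2. All log2 differences lay between -0.12 and 0.29, and without KO replicate 1 at D0, 4 were called. The genotypes did not overlap for 4 members at D0 (12.5%, against 22.5% of all genes) and 14 at D6 (43.8%, against 30.8%). At D6, 3 of 32 were called (9.38%, against 12.8% of all genes), 2 higher in KO cells (6.25%, against 6.87%) and 1 lower (3.12%, against 5.97%), in a range from -0.27 to 0.30, and none met the stricter cut-off (0.749% of all genes). The median absolute difference at D6 was 0.07, against 0.13 over all genes, and 6 members were called at D6 without KO replicate 1 at D0.

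The 3 were the membrane-bound ER pair and a RAD6 homologue. UBE2J1 read 84.4, 82.1 and 77.2 CPM in WT and 95.0, 106 and 99.9 CPM in KO libraries at D6 (log2 0.30 ± 0.06, adjusted p = 0.00777). UBE2J2 read 64.4, 64.9 and 59.4 against 72.0, 67.7 and 72.0 CPM (0.17 ± 0.04, adjusted p = 0.0222). UBE2B read 50.6, 47.0 and 50.1 CPM in WT and 41.9, 38.6 and 42.1 CPM in KO libraries (-0.27 ± 0.06, adjusted p = 0.00754). The genotypes did not overlap for these genes at D6, whereas at D0 UBE2B read 32.8 to 34.9 CPM in WT and 32.8 to 37.2 CPM in KO libraries (0.05 ± 0.06, adjusted p = 0.748). The change of the UBE2B difference between days was -0.32 ± 0.08 (adjusted p = 0.0593). The UBE2J2 call did not survive leaving out WT replicate 3 (0.12, adjusted p = 0.103), KO replicate 1 (0.15, adjusted p = 0.0691) or KO replicate 3 at D6 (0.15, adjusted p = 0.0826). No member was called for this change between days (against 2.47% of all genes), with 5 at an unadjusted p below 0.05 (16.5% of all genes) and 1, UBE2B, called by DESeq2. At D6 UBE2C read 32.1 to 34.1 CPM in KO against 36.0 to 40.0 CPM in WT libraries, without overlap and without a call (adjusted p = 0.0839). UBE2S likewise read 108 to 117 against 121 to 125 CPM (adjusted p = 0.108). UBE2O and UBE2H differed by 0.04 ± 0.05 and 0.00 ± 0.08 at D6.

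**Figure D4:**
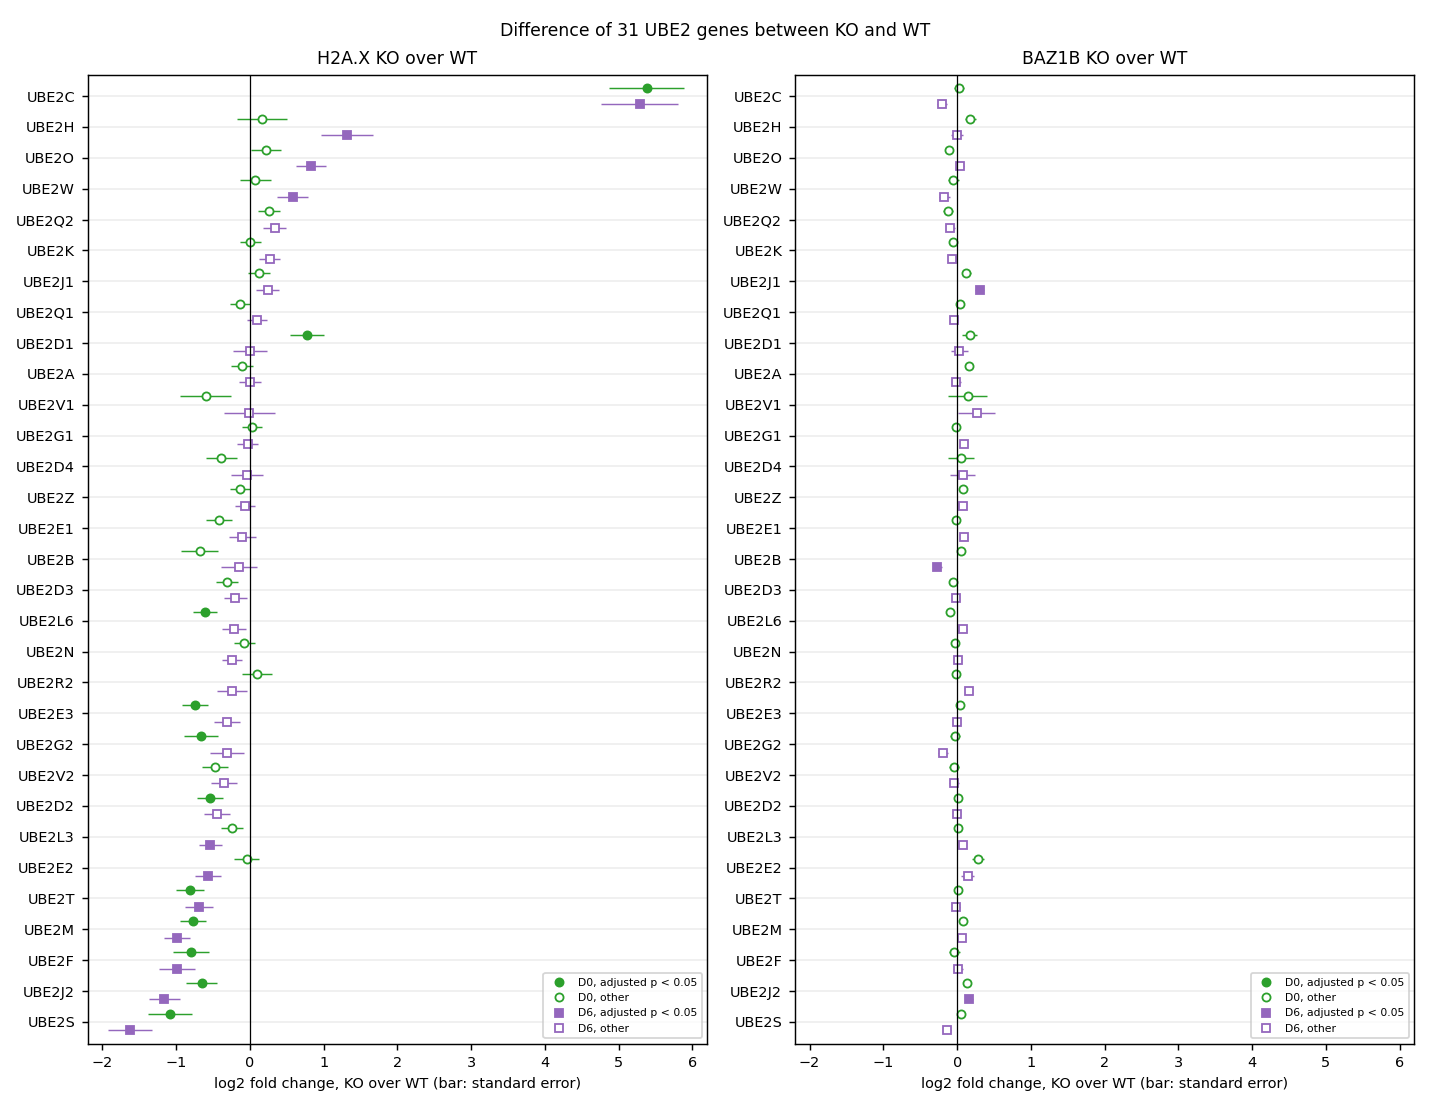
Log2 difference between KO and WT cells of 31 of the 32 tested members, in order of the H2A.X difference at D6; circles are D0 and squares D6, filled symbols passed edgeR's test at an adjusted p below 0.05, and bars are standard errors. UBE2C stands at 5.38 and 5.29 in the H2A.X experiment (left), and in the BAZ1B experiment (right) every member shown lies between -0.27 and 0.30.

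**Figure D5:**
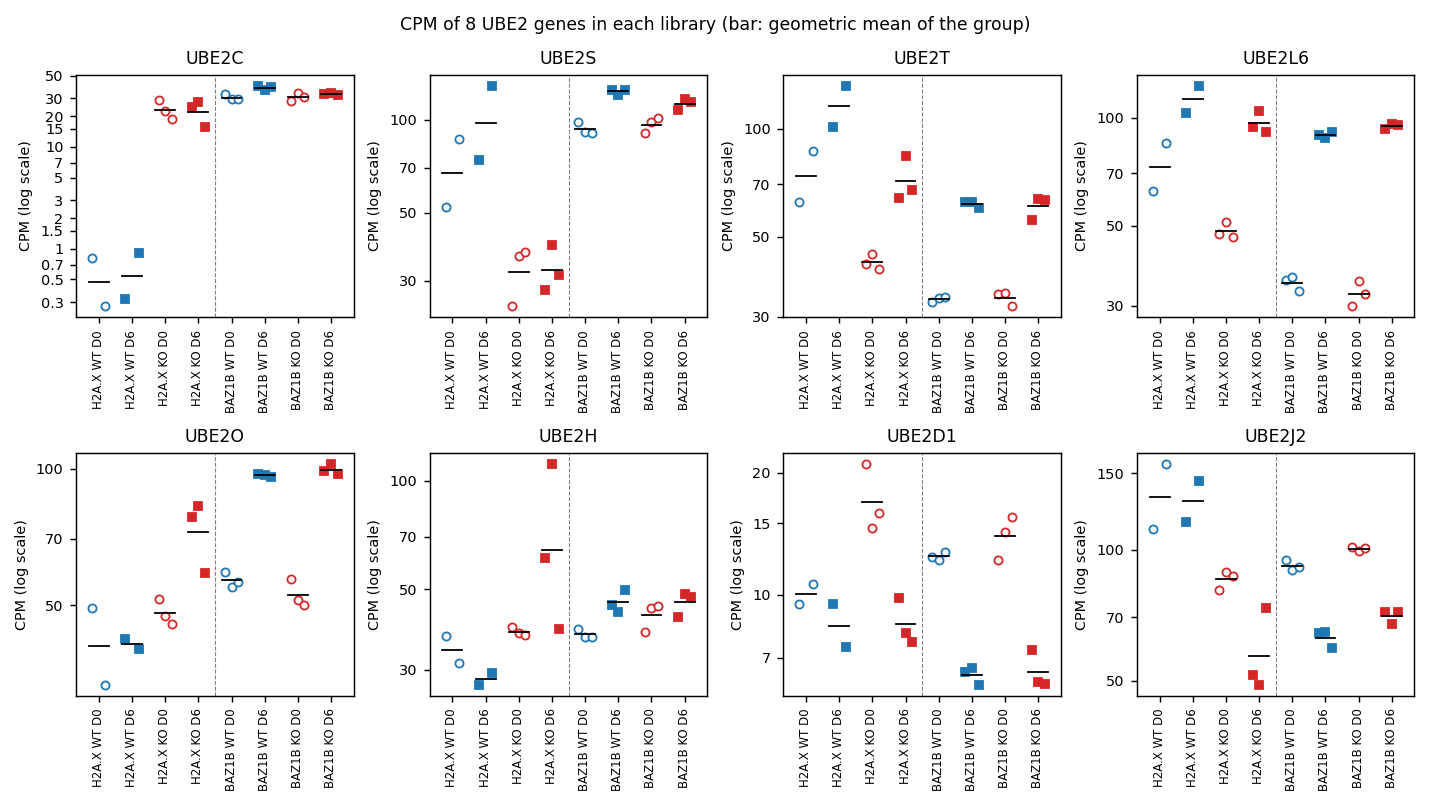
CPM of 8 members in each library on a log axis, with WT in blue and KO in red, D0 as open circles and D6 as filled squares; black bars are geometric means and the dashed line parts the experiments, which were normalised separately. UBE2C lies at 0.272 to 0.917 CPM in the 4 H2A.X WT libraries and at 15.8 CPM or more in all others, and UBE2H at D6 spreads from 38.8 to 111 CPM over the 3 H2A.X KO libraries.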

How the data were processed

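RNA of 22 HUDEP-2 libraries was sequenced as single-end poly(A) reads; per the submitters' processing notes STAR 2.7.0f, Subread 1.6.4 (featureCounts) and DESeq2 1.22.1 were used with hg38, and the strand setting is not given in the sources used here. Per the labels the TruSeq kit did not mark strand, whereas the study's methods name a stranded one. The authors deposited raw read counts per gene, with no normalization, in 1 table per experiment, and each column was matched to its sample by name. Here edgeR 4.0.16 (R 4.3.3) was fitted to each table with 1 coefficient per genotype and day, TMM scaling and a filter at 10 counts (15 in total), and calls were made by its quasi-likelihood test at a Benjamini-Hochberg adjusted p below 0.05 over all genes tested. Standard errors come from the F statistic, CPM from the effective library size, and gene models and lengths from GENCODE 44 (GRCh38). The fit was tested on simulated counts drawn independently for each library. These held no link between days of a subclone and no trend with transcript length, so they do not bear on either.

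Members and lists were chosen with earlier results of these data known. Genes named with full values were UBE2O, UBE2H, UBE2C, UBE2S and UBE2T, any member past the stricter requirement, and the 4 called members with the largest changes of each main comparison; others are named by group, and library values of UBE2M were added after its values were seen. Of the tested members, 1 enters the counts but is not reported by name or plotted by name here. Nothing but the numbers in the titles and column names shows that libraries came from separate cultures. Deviations of same-numbered libraries correlated between days at 0.31 to 0.60 in the 3 H2A.X KO pairs and at 0.10 to 0.57 in the 3 BAZ1B KO pairs. In H2A.X WT, with 2 libraries a day, the deviations mirror each other, so both pairs give 1 value, 0.55. The numbers were taken to mark subclones in these groups, which for H2A.X WT rests on that 1 value. BAZ1B WT numbers (-0.04 to 0.21) and those shared by WT and KO were not taken so. Alternatives were DESeq2 1.42.0, upper-quartile scaling, no filter, the compared groups alone, a replicate block, a length and GC offset (mgcv 1.9.3), and each library left out. The length and GC offset was extended to the pathway lists after the data were seen.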

Additional observations from a re-analysis of the deposited data

How the results depend on the processing

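At the stricter cut-off (adjusted p under 0.001 with a log2 change beyond 1.5 either way) the members called between days were 0 in H2A.X KO, 0 in BAZ1B WT and 1 in BAZ1B KO cells, and between genotypes 1 at D0 and 1 at D6 in the H2A.X and 0 at D6 in the BAZ1B experiment. DESeq2 called 2 members between days in H2A.X WT cells, and 1 between BAZ1B genotypes at D0 and 1 for their change between days, where edgeR's test called 0. With no filter on low counts 5 members were called between BAZ1B genotypes at D6 against 3, 1 at D0 against 0, and 1 in each experiment for the change between days; upper-quartile scaling gave 1 for that change in the BAZ1B experiment, and moved the median of all genes in the H2A.X comparison at D6 to -0.11. The length and GC correction gave 1 call between BAZ1B genotypes at D0, and turned UBE2L6 at D6 in H2A.X KO against WT cells from -0.22 to 0.50, or 0.60 with the replicate block. The replicate block gave 2 calls between days in H2A.X WT cells, or 1 with the length and GC correction, and 1, with or without that correction, for the change between days in the BAZ1B experiment, whose WT numbers did not pair the days; the numbers did not pair WT with KO libraries, and there the block gave 10 against 11 calls at D0 and 12 against 12 at D6 in the H2A.X and 0 and 2 in the BAZ1B experiment. It moved no other count by over 1.5 times, and moved the median difference of the members between H2A.X genotypes at D6 from -0.18 to -0.07; the length and GC correction moved it to -0.30. Leaving out 1 library at a time gave 0 calls between days in H2A.X WT, 5 to 11 in H2A.X KO, 23 to 27 in BAZ1B WT and 21 to 25 in BAZ1B KO cells; between genotypes it gave 1 to 13 at D0 and 1 to 14 at D6 in the H2A.X and 0 to 4 and 2 to 6 in the BAZ1B experiment, and 0 to 1 for the change between days in each (1 without KO replicate 3 at D6 in the H2A.X and without KO replicate 1 at D0 in the BAZ1B experiment). A lone WT library was assumed to vary like the other groups. The share of all genes called under each alternative is not given here, so a move of these counts cannot be read as particular to the members. The cause of these moves was not tested. UBE2C in H2A.X KO against WT cells stayed called under every alternative. UBE2V1, with 1.30 to 3.73 CPM, and UBE2C in H2A.X WT libraries, with 4 to 14 reads, were limited by depth.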

Other observations

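Several pathway genes outside the name rule moved in the comparison of H2A.X KO with WT cells in ways that the members alone do not show. BIRC6, a giant E2 with ligase activity that blocks apoptosis, was among the E2-fold genes the 1 that was higher in KO cells, by log2 2.32 ± 0.46 at D0 (adjusted p = 0.00807) and 1.90 ± 0.45 at D6 (adjusted p = 0.00909). With the length and GC correction these became 1.17 ± 0.26 (adjusted p = 0.0138) and 0.80 ± 0.26 (adjusted p = 0.0477). CDC34 was lower. It read 39.1, 51.9 and 46.8 CPM in KO against 102 and 141 CPM in WT libraries at D0 and 87.1, 143 and 92.2 against 150 and 237 CPM at D6 (-1.40 ± 0.27, adjusted p = 0.00757, and -0.85 ± 0.27, adjusted p = 0.0267), which the correction moved to -0.74 (adjusted p = 0.0428) and 0.22 (adjusted p = 0.502). UBA6, the E1 that charges UBE2Z, was higher on both days but was not called with the correction (0.13 on each day). At D0, 9 of the 10 E1 genes were not called (35.1% of all genes were called). In BAZ1B KO against WT cells no gene of the 7 pathway lists was called at D0 (against 3.88% of all genes). At D6, where 6.87% of all genes were called higher and 5.97% lower, calls in these lists went both ways. CDC34 was lower (-0.32 ± 0.05, adjusted p = 0.00142) and YPEL5 was lower (-0.30 ± 0.06, adjusted p = 0.00693). RNF168 was lower too, as were 3 of the 15 mitotic markers, CENPF, CDK1 and MKI67. ANAPC1 and ANAPC7 (0.14 and 0.13), ATG3, GID4, RNF20 and RNF40 were higher.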
